A study of Xenopus laevis with 40 samples.

Results

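The genes described here are those of DNA replication and the cell cycle engine: the Mcm, Orc, Gins and Pcna genes, cyclins A, B, D, E and F, the cyclin-dependent kinases (Cdks), the E2f transcription factors, Aurora kinases A and B and Polo-like kinases 1 to 3. They were chosen by symbol from the table deposited by the authors, as gene IDs whose symbol starts like a member of these families and that had 10 or more counts in 2 or more of the 40 libraries. The pattern matched 105 gene IDs, of which cdk5rap3.L failed the count rule, so 104 of 51017 gene IDs were kept. This rule uses symbols and counts and no difference between groups. The 104 genes carry 72 base symbols, because Xenopus laevis is an allotetraploid frog whose genome holds related copies on its L and S chromosomes. For 32 base symbols both copies are among the 104 genes, and 40 genes stand as 1 copy.

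Before a cell copies its DNA, the origin recognition complex (Orc) marks replication origins and loads the hexameric Mcm2-7 helicase there. Cyclin E with Cdk2 and cyclin A with Cdk2 start and sustain S phase, Gins completes the active helicase, and Pcna clamps the polymerases to the template. Cyclin D with Cdk4 or Cdk6 releases the E2f factors that transcribe S-phase genes, and cyclin B with Cdk1, the Aurora kinases and Plk1 drive mitosis. In Xenopus eggs many of these mRNAs and proteins are stored by the mother for the rapid early cleavages, and some exist as a maternal and a later zygotic form. Multiciliated cells of the frog epidermis have left the cell cycle, yet they use cell cycle factors to build many centrioles, and E2f4 and E2f5 act there together with Multicilin (the mcidas protein).

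RNA was measured by poly-A RNA sequencing in animal cap explants, which develop into a mucociliary epidermis in culture, from wild-type Xenopus laevis embryos. Embryos received 4 injections at the 4-cell stage into the animal hemisphere, and explants were cut at stage 8. The nicd group received mRNA of the Notch intracellular domain at 120 ng/ul (Notch gain). The suh-dbm+dnmcidas group received suh-dbm mRNA and dominant-negative multicilin mRNA at 100 ng/ul each. The suh-dbm group received suh-dbm mRNA, which blocks Notch signalling, at 100 ng/ul. The foxa1MO group received 3 pmol of a morpholino against the foxa1 start codon, and control embryos were not injected, so that injection itself was not controlled for. Each of the 5 treatments was sampled at 4 Nieuwkoop and Faber stages, written st10.5, st16, st25 and st32, in 2 experiments, each from its own female and fertilization. Values of the 2 libraries of a group are given below as experiment 1, then experiment 2.

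The libraries held 20.2 M to 99.4 M counts (median 36.3 M), and all 104 genes passed the filter for testing. Levels are in CPM, counts scaled to library size and by the trimmed mean of M-values, and they do not allow comparison between genes, for which no lengths were at hand. A gene was called higher or lower at an edgeR adjusted p under 0.05 over the 31648 genes tested. Counts given below with a library left out can include members that were not called with all 40 libraries. The share of all genes called was not counted in those fits. Whether such changes in count are particular to the members was therefore not tested. Control explants carried the markers of the epidermis: at st25 the 15 multiciliated cell marker genes summed to 1269 and 1062 CPM, the 11 ionocyte genes to 1440 and 1854 CPM and the 6 goblet cell genes to 7064 and 5644 CPM. An explant holds all of these cells in 1 sample, so fewer cells of a type and less RNA per cell cannot be told apart in any result below. Counting of the unstranded libraries cannot separate reads of overlapping genes, and 12 of the 100 members found in the RefSeq gene table overlap the span of another gene, among them mcm7.S, mcm6.L, plk3.L, ccnd1.S and orc4.L. Reads may also be shared between L and S copies.

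In control explants the cell cycle genes fell with age, with cyclins B1 and A1 among the largest drops. The 104 genes together summed to 10810 and 9798 CPM at st10.5, 5378 and 4362 CPM at st16, 2057 and 2043 CPM at st25 and 1688 and 1678 CPM at st32. Comparing st32 with st10.5, 8 genes were higher and 63 lower, where 27.1% of all tested genes were higher and 28.5% lower. The median log2 fold change was -1.80 over the members and -0.11 over all genes. All 9 cyclin B genes, all 4 cyclin A genes, all 3 cyclin E genes, all 4 Aurora genes and 8 of 10 E2f genes were lower. With 1 of the 4 libraries left out, 67 to 70 members were called. The 15 largest drops were those of ccnb1.S, ccnb1.L, ccnb2.S, ccnb2.L, ccnb5.L, ccna1.S, ccna1.L, ccna2.L, ccne2.L, ccne1.S, mcm3.L, mcm6.L, e2f7.L and the Cdk5 activators cdk5r2.S and cdk5r2.L. For mcm3.L this came to 2 counts at st32 and 2525 at st10.5, a ratio of 1013 with a counting interval of 280 to 8366. The 8 genes that rose were cdk14.S, mcm5.S, plk3.S, plk3.L, cdk19.L, cdk16.L, mcm6.2.L and orc4.L. plk3.S averaged 82.9 ± 28 CPM at st32 and 10.8 ± 2.5 CPM at st10.5 (SD, n = 2 each), and cdk14.S, a Cdk that acts in Wnt signalling, was at 4.46 and 4.88 CPM at st32 and at 0.0621 and 0 CPM at st10.5.

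**Figure D1:**
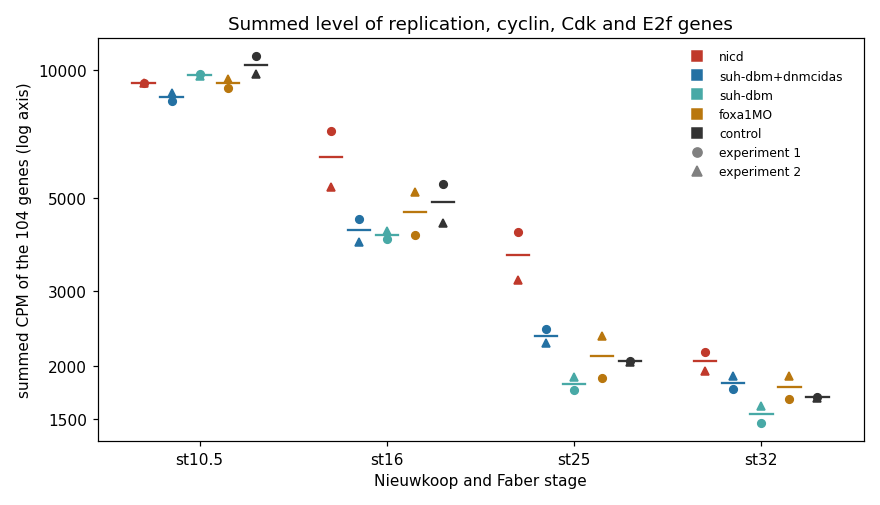
Summed level of the 104 genes in CPM (vertical axis, log scale) in each of the 40 libraries, by stage (horizontal axis) and treatment, with 1 point per library. Control libraries drop to 1688 and 1678 CPM by st32, and at st25 the nicd libraries, at 4147 and 3187 CPM, lie above all others of that stage.

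The first step, st16 against st10.5, brought 13 genes up and 46 down, with 22.2% of all genes higher and 22.6% lower. The count of called members was between 35 (without the second st16 library) and 55 (without the second st10.5 library). Cyclins E, A and B were among the genes that fell most. ccne2.L, a cyclin E of early S phase, averaged 97.0 ± 15 CPM at st16 and 646 ± 290 CPM at st10.5 (SD, n = 2 each), a log2 fold change of -2.74 ± 0.54 (SE). ccne1.S (-2.73), ccna2.L (-2.64), ccnd2.S (-2.83), orc6.L (-2.63), orc5.L (-2.40), ccnb2.S (-2.18) and ccnb1.2.L (-2.17) fell by similar amounts. cdk14.L, ccnb5.L and the Cdk5 activators cdk5r2.L and cdk5r2.S were also among the 15 largest drops. cdk14.L rested on 1 count at st16 and 27 at st10.5, and the ratio of 43.5 had a counting interval of 7.16 to 1779.

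Several pairs of related genes moved in opposite ways over the same time. mcm6.L, which RefSeq lists with the synonym mmcm6 for the maternal form, was at 84.3 and 83.3 CPM at st10.5, 28.0 and 17.1 CPM at st16, 3.56 and 2.64 CPM at st25 and 0.365 and 0.461 CPM at st32. mcm6.2.L, listed with the synonym zmcm6 for the zygotic form, was at 18.8 and 26.4 CPM at st10.5, 115 and 89.2 CPM at st16, 61.4 and 39.2 CPM at st25 and 59.0 and 48.3 CPM at st32. The 2 forms of this helicase subunit thus moved in opposite directions between st10.5 and st16. The call for mcm6.2.L at st16 was a log2 fold change of 2.18 ± 0.35 (edgeR adjusted p = 1.70e-05), and that for mcm6.L was -1.89 ± 0.59 (edgeR adjusted p = 0.0105). mcm6.2.S followed mcm6.2.L with 1.26 ± 0.27, and mcm3.L followed mcm6.L with -3.71 ± 0.54.

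The copies of mcm5, another helicase subunit, diverged as well. mcm5.S was at 2.16 and 3.62 CPM at st10.5, 39.2 and 37.2 CPM at st16, 20.9 and 13.7 CPM at st25 and 24.5 and 23.0 CPM at st32. mcm5.L was at 129 and 185, 116 and 101, 32.3 and 19.6, and 24.9 and 26.0 CPM at the same 4 stages. Between st32 and st10.5 the S copy rose by 3.04 on the log2 scale and the L copy was lower, and mcm5 was the 1 of 32 L and S pairs whose copies were called in opposite directions. In 19 pairs both copies were called in the same direction over that span, and no such count was made over all L and S pairs.

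Among the cyclins, ccnb1.L and ccnb1.S, copies of the mitotic cyclin B1, all but vanished. ccnb1.S was at 125 and 55.0 CPM at st10.5 and at 0.563 and 0.185 CPM, 0.0511 and 0 CPM, and 0.0811 and 0.154 CPM at the later stages, and its log2 fold change between st16 and st10.5 was -7.85 ± 0.84 (edgeR adjusted p = 1.05e-07). ccnb1.L fell by 5.58 on the log2 scale in the same step. ccnb1.2.L, a second cyclin B1 gene, was still at 194 and 144 CPM at st16 and at 27.4 and 32.3 CPM at st32. ccna1.L and ccna1.S, copies of cyclin A1, the early embryonic A-type cyclin of Xenopus, disappeared later. ccna1.S was at 80.7 and 42.7 CPM at st10.5, 18.8 and 21.7 CPM at st16, 8.42 and 10.3 CPM at st25 and 0.0811 and 0.269 CPM at st32.

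Markers of the epidermal cell types changed over the same stages. In control explants the 15 multiciliated cell genes summed to 255 and 325, 993 and 1018, 1269 and 1062, and 803 and 781 CPM from st10.5 to st32, and the 6 goblet cell genes to 795 and 1164, 4518 and 3492, 7064 and 5644, and 12258 and 7848 CPM. Their part in the fall of the cell cycle genes was not tested.

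**Figure D2:**
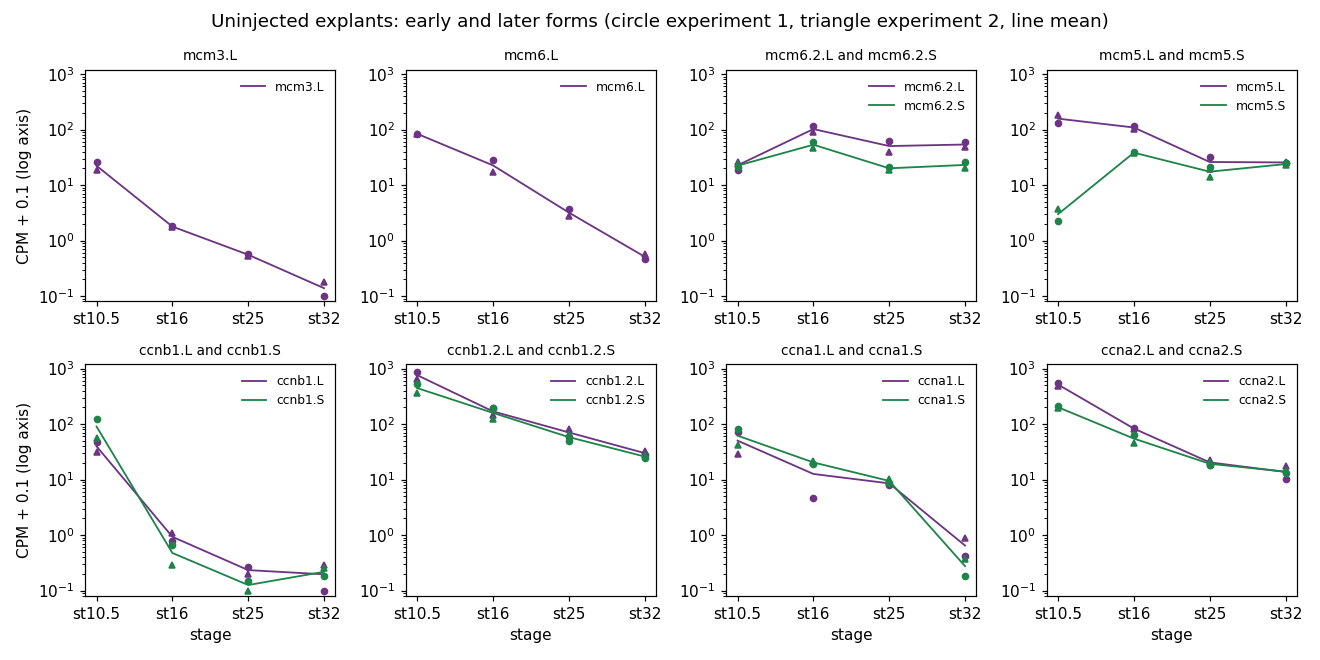
Level in CPM on a log axis (CPM + 0.1) of mcm3, mcm6, mcm6.2, mcm5, ccnb1, ccnb1.2, ccna1 and ccna2 genes against stage in control explants, with a circle for experiment 1 and a triangle for experiment 2. mcm6.L falls from st10.5 on while mcm6.2.L is higher at st16, and ccna1.S is above 8 CPM until st25.

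The 13 genes that rose between st10.5 and st16 were mcm5.S, mcm6.2.L, mcm6.2.S, cdk7.L, gins3.L, gins1.S, cdk1.L, cdk1.S, cdk6.L, cdk9.S, cdk16.L, cdk20.L and plk3.L. cdk7.L, the catalytic subunit of the Cdk-activating kinase, showed a single peak. It was at 36.6 and 45.3 CPM at st10.5, 143 and 144 CPM at st16, 19.9 and 16.6 CPM at st25 and 10.3 and 9.33 CPM at st32. Its log2 fold change was 1.81 ± 0.33 between st16 and st10.5 and -2.97 ± 0.35 between st25 and st16 (edgeR adjusted p = 8.91e-05 and 3.11e-06). The copies of cdk9, the kinase of transcription elongation, were called in opposite directions between st10.5 and st16. cdk9.L was lower, with a log2 fold change of -1.66 ± 0.24, and cdk9.S was higher, with 1.11 ± 0.44. At st10.5 cdk9.S had 476 and 727 counts, in libraries of 57.1 M and 40.9 M counts. At st16 it had 2025 and 1337 counts, in libraries of 99.4 M and 58.3 M, so its rise was larger in experiment 1.

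Between st25 and st16, 5 genes were higher and 53 lower, with 21.9% of all genes called in either direction and 11.4% lower, and leaving out 1 library gave 34 (first st16 library) to 50 called members (second st16 library). The replication helicase took part almost whole: 11 of 12 Mcm2-7 genes fell, with a median of -1.97 over the 12. Pcna, all 3 cyclin E genes, all 4 Aurora genes, 5 of 9 cyclin B genes, 5 of 7 cell cycle Cdks and 6 of 10 E2f genes fell with it. mcm7.L averaged 54.5 ± 13 CPM at st25 and 397 ± 140 CPM at st16, and e2f7.L, a repressor E2f, averaged 12.8 ± 0.037 CPM at st25 and 116 ± 8.7 CPM at st16 (SD, n = 2 each). The other largest drops were those of cdk7.L, mcm6.L, mcm7.S, mcm2.L, mcm5.L, mcm4.S, ccne2.L, e2f8.L, gins1.S, cdk2.S, ccnb1.S, cdk5r1.L and cdk5r2.L, between -3.58 and -2.07. ccnb1.S rested on 3 counts at st25 and 56 at st16, a ratio of 12.9 with a counting interval of 4.18 to 64.2. The 5 genes that rose were cdk14.S, cdk14.L, plk3.S, plk3.L and cdk5rap2.L. The rise of cdk14.L rested on 38 counts at st25 and 1 at st16, a ratio of 55.2 with a counting interval of 9.32 to 2236. plk3.S, a stress-responsive Polo-like kinase, averaged 59.7 ± 4.0 CPM at st25 and 16.3 ± 1.2 CPM at st16 (SD, n = 2 each).

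The last step, st32 against st25, brought 6 genes down and none up by edgeR, where 0.562% of all genes were higher and 0.875% lower. They were ccna1.S, ccna1.L, mcm3.L, mcm6.L, plk1.S and ccne1.S. ccna1.S averaged 0.175 ± 0.13 CPM at st32 and 9.34 ± 1.3 CPM at st25 (SD, n = 2 each), a log2 fold change of -5.88 ± 0.88 (edgeR adjusted p = 0.00151). mcm3.L rested on 2 counts at st32 and 46 at st25, and the ratio of 16.6 had a counting interval of 4.35 to 142. The count was 0 without the first and 3 without the second st32 library, and 1 without either st25 library.

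The nicd comparison asks what Notch gain does to these genes. At st25 nicd explants had higher levels of much of the replication machinery than control explants. Of the 104 genes, 29 were higher and 4 lower, where 5.21% of all tested genes were higher and 7.10% lower. Most of the higher calls were lost without at least 1 single library, and those that held are named as such below. With the experiment as a replicate block, 35 were higher and 5 lower, against 6.97% and 8.90% of all genes. Without the block, the median log2 fold change was 0.70 over the members and 0.00 over all genes, and 83 of 104 had a value above 0. The increase covered 8 of 12 Mcm2-7 genes, 6 of 10 E2f genes, 3 of 7 cell cycle Cdks, 2 of 4 cyclin D genes, 2 of 4 cyclin A genes, pcna.L, ccnf.L, and 1 gene each of cyclin E, Orc, Gins, Aurora, the Polo-like kinases and the other Cdks. None of the 9 cyclin B genes was called at st25, though their median was 0.58, and none of the 7 transcription Cdks, the 3 other Mcm genes (mcm8.L, mcm9.L and mcm10.L) or the 11 genes that share only the start of a symbol with these families was called. The count was 16 without the first control library, 11 without the first nicd library, 18 without the second control library and 34 without the second nicd library.

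The helicase genes were the family with the most calls. mcm4.L was at 87.8 and 60.4 CPM in nicd explants and at 22.6 and 17.9 CPM in control explants, a log2 fold change of 1.87 ± 0.28 (edgeR adjusted p = 3.79e-05). mcm5.L was at 137 and 74.4 CPM in nicd explants and at 32.3 and 19.6 CPM in control explants (2.03 ± 0.32, edgeR adjusted p = 6.84e-05). mcm7.L was at 211 and 153 CPM in nicd explants and at 63.4 and 45.6 CPM in control explants (1.74 ± 0.29). These 3 calls, with those for mcm2.L and mcm6.2.S, held without any single library. mcm2.S (2.20), mcm4.S (1.89), mcm7.S (1.87) and mcm2.L (1.85) completed the 15 largest increases among the helicase genes.

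Outside the helicase, the pcna gene, 1 of 6 Orc genes and 1 of 4 Gins genes were called higher, and the family medians were 0.55 for Orc and 0.76 for Gins. pcna.L, the polymerase clamp, was at 111 and 70.1 CPM in nicd explants and at 22.4 and 21.1 CPM in control explants (2.06 ± 0.56, edgeR adjusted p = 0.0152). orc1.L, the largest origin recognition subunit, was at 23.6 and 16.3 CPM in nicd explants and at 8.10 and 6.45 CPM in control explants (1.46 ± 0.26, edgeR adjusted p = 0.000297). gins1.S was at 10.2 and 9.83 CPM in nicd explants and at 3.82 and 2.90 CPM in control explants (1.57 ± 0.40, edgeR adjusted p = 0.00966). Of these 3 calls, that of orc1.L held without any single library.

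Among the cyclins and Cdks of G1 and S phase, ccne2.L was at 60.3 and 51.2 CPM in nicd explants and at 13.1 and 14.2 CPM in control explants (2.03 ± 0.52, edgeR adjusted p = 0.0103). cdk2.L, the partner of cyclins E and A, was at 55.3 and 30.9 CPM in nicd explants and at 13 and 11.6 CPM in control explants (1.81 ± 0.27, edgeR adjusted p = 3.17e-05), and cdk2.S was at 40.5 and 30.9 CPM in nicd explants and at 15.6 and 10.1 CPM in control explants. Both cdk2 calls held without any single library. The cyclin D1 genes were uneven between experiments. ccnd1.L was at 59.7 and 24.3 CPM in nicd explants and at 7.86 and 8.35 CPM in control explants (2.37 ± 0.70, edgeR adjusted p = 0.0260), and its adjusted p reached 0.347 when 1 library was left out; ccnd1.S had a log2 fold change of 1.61. ccnf.L, the F-box cyclin, was at 71.7 and 62.1 CPM in nicd explants and at 25.5 and 26.5 CPM in control explants.

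Both activator and repressor E2f genes were among the increases, but each of the 6 E2f calls, and that of aurkb.L, was lost without at least 1 single library. e2f1.L, an activator, was at 12.4 and 7.45 CPM in nicd explants and at 2.06 and 2.40 CPM in control explants (2.15 ± 0.50, edgeR adjusted p = 0.00397). e2f7.L, a repressor, was at 63.0 and 40.9 CPM in nicd explants and at 12.8 and 12.8 CPM in control explants (2.02 ± 0.53, edgeR adjusted p = 0.0107). e2f3.L was at 108 and 67.5 CPM in nicd explants and at 38.4 and 42.6 CPM in control explants. Experiment 1 had the higher nicd value for all 3, and aurkb.L, the kinase of the chromosomal passenger complex, had the same order with 113 and 78.9 CPM in nicd explants, against 50.3 and 48.9 CPM in control explants.

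**Figure D3:**
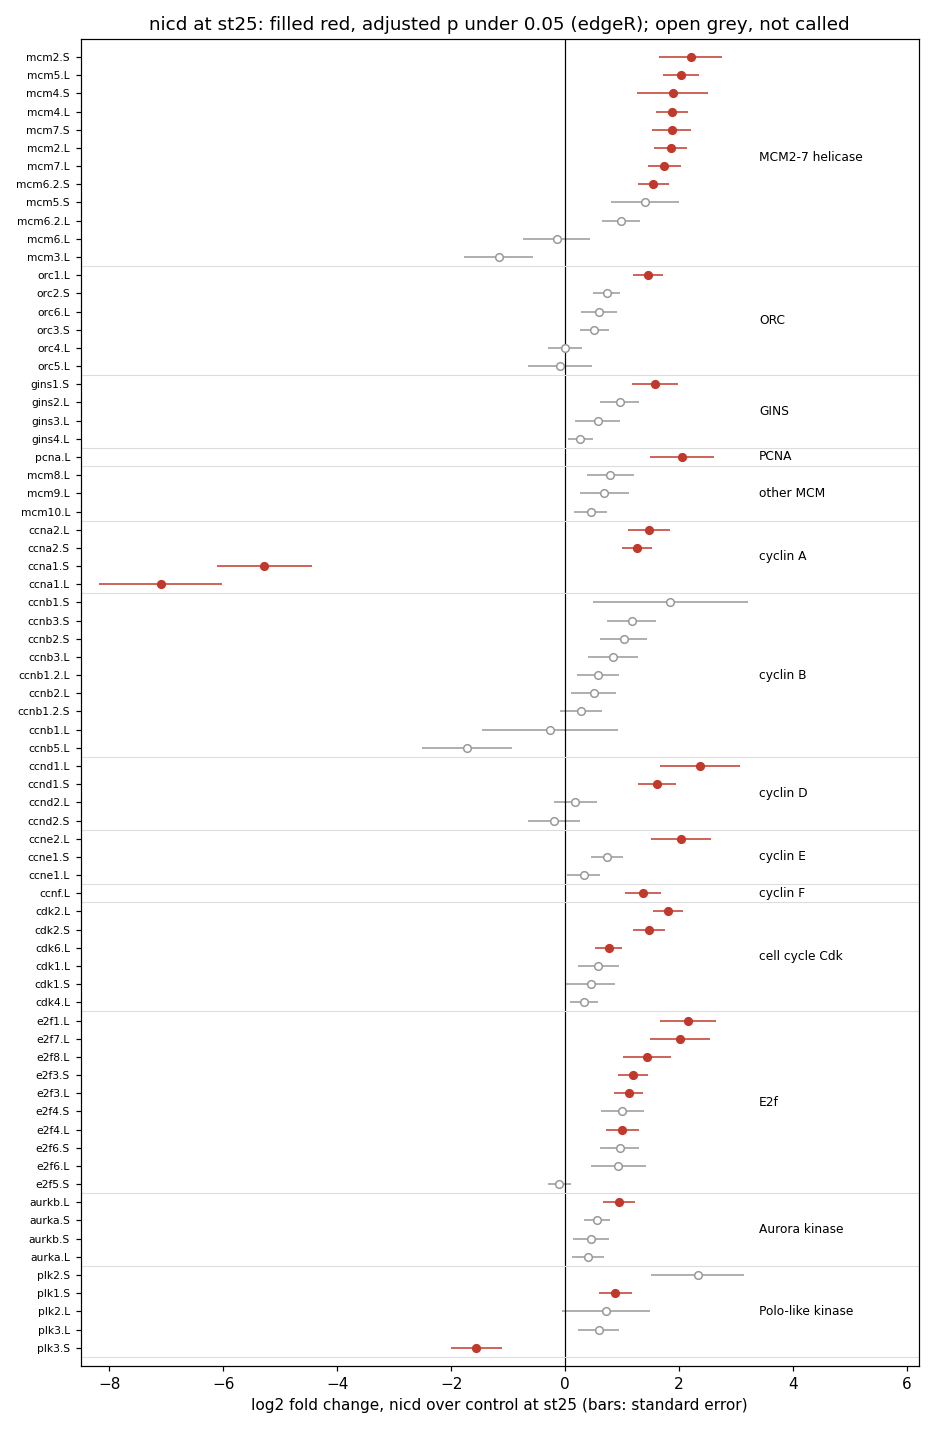
Log2 fold change of nicd over control explants at st25 (horizontal axis, bars ± SE) for the Mcm, Orc, Gins, Pcna, cyclin, cell cycle Cdk, E2f, Aurora and Polo-like kinase genes, grouped by role, with called genes marked. Transcription and other Cdks, the genes that share only the start of a symbol, and cdk6.S, which had few counts, are left out; the Mcm2-7 genes lie mostly right of 0, and ccna1.L and ccna1.S lie at -7.09 and -5.28.

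The 4 genes lower in nicd explants at st25 were ccna1.L, ccna1.S, cdk20.L and plk3.S. Both ccna1 calls held without any single library, while that of cdk20.L was lost without the second nicd or the second control library and that of plk3.S without the first nicd library or either control library. ccna1.L was at 0.0654 and 0.0528 CPM in nicd explants, 2 counts in each library, and at 7.96 and 8.90 CPM in control explants (-7.09 ± 1.08, edgeR adjusted p = 4.52e-05). ccna1.S was at 0.327 and 0.159 CPM in nicd explants and at 8.42 and 10.3 CPM in control explants (-5.28 ± 0.83, edgeR adjusted p = 7.00e-05). The cyclin A1 genes thus moved against cyclin A2, since ccna2.L and ccna2.S, the A-type cyclins of somatic cells, were both called higher (1.47 and 1.26). plk3.S was at 8.5 and 32 CPM in nicd explants and at 56.9 and 62.6 CPM in control explants, and cdk20.L, a kinase linked to cilia, averaged 0.665 ± 0.49 CPM in nicd explants and 2.92 ± 0.39 CPM in control explants (SD, n = 2 each).

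At st16 the same treatment gave fewer calls, 3 higher and 6 lower, where 2.71% of all genes were higher and 7.22% lower. The median log2 fold change was 0.39 over the members and 0.01 over all genes, and 80 of 104 members had a value above 0. The difference of st25 from st16 or st32 was not tested. With the experiment as a replicate block, 9 members were higher and 6 lower, against 4.02% and 8.72% of all genes. The genes that rose were mcm4.L (132 and 133 CPM in nicd explants, 72.8 and 70.3 CPM in control explants), orc1.L (0.79 ± 0.25) and e2f6.S (1.05 ± 0.34). The genes that fell were ccna1.L, ccna1.S, cdk7.L, cdk20.L, ccnb5.L and plk3.S. cdk7.L was at 31.8 and 31.4 CPM in nicd explants and at 143 and 144 CPM in control explants (-2.18 ± 0.33, edgeR adjusted p = 7.46e-05). Of the 9 calls, those of cdk7.L and the 2 ccna1 genes held without any single library; the count was 5 without the first control library, 3 without the first nicd library, 4 without the second control library and 14 without the second nicd library.

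St10.5 and st32 gave at most 1 call between nicd and control explants. At st10.5 edgeR called 0 of 104 members, with 1 at an unadjusted p under 0.05 and 0 calls by DESeq2, where 0.0411% of all genes were higher and 0.0126% lower. At st32 it called cdk20.L alone, lower at 0.578 and 0.220 CPM in nicd explants against 1.97 and 1.38 CPM in control explants (-2.05 ± 0.55, edgeR adjusted p = 0.0208), where 1.78% of all genes were higher and 4.05% lower. With the replicate block, 3 members were called at st32, against 7.75% of all genes. Without the block, the median at st32 was 0.32 over the members and 0.00 over all genes, with 77 of 104 members above 0. The cdk20.L call was lost without the first control library or the second nicd library. An unadjusted p under 0.05 was found for 18 members, and the share of all genes at that threshold was not counted.

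Several marker lists of other cell types also differed between nicd and control explants at st25. The 15 multiciliated cell marker genes, 12 of them called lower, summed to 62.7 and 40.9 CPM in nicd explants and to 1269 and 1062 CPM in control explants, with none at 0 in both nicd libraries. The 11 ionocyte genes, all called lower, summed to 9.32 and 32.9 CPM in nicd explants and to 1440 and 1854 CPM in control explants, with atp6v0d2.S at 0 in nicd explants. Cement gland markers (5 genes, 4 called higher) summed to 3021 and 2912 CPM in nicd explants and to 320 and 393 CPM in control explants. Neural markers (8 genes, 1 called higher and 1 lower) summed to 238 and 236 CPM in nicd explants, with neurog2.S at 0, and to 50.1 and 71.3 CPM in control explants. Mesoderm markers (8 genes, none called) summed to 70.1 and 214 CPM in nicd explants and to 10.9 and 16.4 CPM in control explants. Goblet cell markers (6 genes, 1 called lower) summed to 1587 and 2538 CPM in nicd explants and to 7064 and 5644 CPM in control explants. Basal cell markers (6 genes, 1 called higher) summed to 581 and 431 CPM in nicd explants and to 429 and 334 CPM in control explants. Sums of the 5 small secretory cell genes lay close, at 27.6 and 34.4 CPM in nicd and 24.8 and 28.6 CPM in control explants. The 7 endoderm genes were low in both, at 6.87 and 6.05 CPM in nicd and 9.60 and 8.28 CPM in control explants. The part of all these markers in the higher replication genes was not tested.

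The suh-dbm+dnmcidas comparison with control adds dominant-negative multicilin to the Notch block. At st16 it brought 9 members down and none up, where 0.398% of all genes were higher and 3.72% lower. The genes were cyclin A1 (ccna1.S, ccna1.L), cdk7.L, cdk20.L, e2f7.L, orc4.L and 3 helicase subunits, mcm4.L, mcm2.L and mcm6.2.S. The members' median was -0.12 and that of all genes -0.02. Calls for cdk7.L, mcm4.L, ccna1.L and ccna1.S held without any single library, and the count was 5 and 4 without the first control or suh-dbm+dnmcidas library and 7 and 6 without the second one.

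At this stage cdk7.L and mcm4.L had wide gaps between groups. cdk7.L was at 16.2 and 15.4 CPM in suh-dbm+dnmcidas explants, 158 and 111 CPM in suh-dbm explants, 152 and 77.7 CPM in foxa1MO explants and 143 and 144 CPM in control explants. Thus the st16 peak of control explants was missing both in these explants and in nicd explants and present in the other 3 groups; the change from control was -3.18 ± 0.35 (edgeR adjusted p = 1.19e-06). mcm4.L was at 132 and 133 CPM in nicd explants, 12.4 and 21.4 CPM in suh-dbm+dnmcidas explants, 53.8 and 70.4 CPM in suh-dbm explants, 49.1 and 82.9 CPM in foxa1MO explants and 72.8 and 70.3 CPM in control explants. It was called in opposite directions in the 2 treatments against the same control libraries, higher in nicd explants (0.89 ± 0.27, edgeR adjusted p = 0.0377) and lower in suh-dbm+dnmcidas explants (-2.08 ± 0.28, edgeR adjusted p = 1.57e-05). The nicd call was lost without either control library or without the first nicd library, while the suh-dbm+dnmcidas call held.

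Cyclin A1 was at its lowest in the nicd and suh-dbm+dnmcidas groups. ccna1.S was at 2.33 and 1.52 CPM in nicd explants, 0.447 and 0.458 CPM in suh-dbm+dnmcidas explants, 21.1 and 12 CPM in suh-dbm explants, 15 and 3.30 CPM in foxa1MO explants and 18.8 and 21.7 CPM in control explants. The fold change in suh-dbm+dnmcidas explants was -5.47 ± 0.80 for ccna1.S and -5.10 ± 0.87 for ccna1.L (edgeR adjusted p = 3.78e-05 and 0.000276). e2f7.L was at 25.2 and 31.2 CPM in suh-dbm+dnmcidas explants and at 122 and 110 CPM in control explants (-2.04 ± 0.52, edgeR adjusted p = 0.0203). cdk20.L was at 1.16 and 1.07 CPM in suh-dbm+dnmcidas explants and at 5.51 and 4.76 CPM in control explants. The calls for e2f7.L, cdk20.L, orc4.L, mcm2.L and mcm6.2.S were each lost without at least 1 single library.

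**Figure D4:**
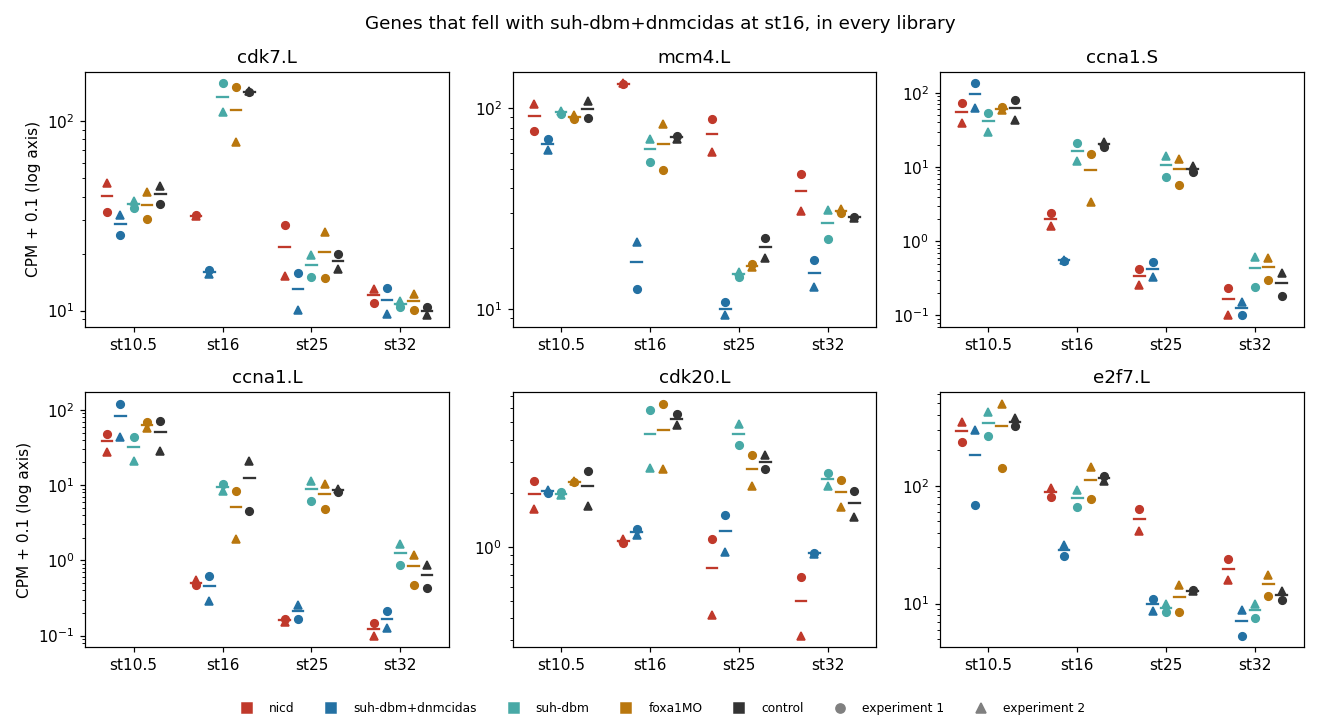
Level in CPM (vertical axes) of cdk7.L, mcm4.L, ccna1.S, ccna1.L, cdk20.L and e2f7.L in each library by stage and treatment, with 1 point per library. At st16 the suh-dbm+dnmcidas libraries lie lowest for cdk7.L, at 16.2 and 15.4 CPM, and for mcm4.L, at 12.4 and 21.4 CPM, while the nicd libraries are at 132 and 133 CPM for mcm4.L.

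The effect on cdk7.L depended on stage by a test of the difference itself. The log2 fold change of suh-dbm+dnmcidas over control was greater at st32 than at st16 by 3.38 ± 0.47 (edgeR adjusted p = 0.00121), and that of nicd over control by 2.46 ± 0.46 (edgeR adjusted p = 0.00624). Each was the 1 member called in its test, where 0.243% and 1.26% of all genes were called, and both held without any single library. At st32 cdk7.L was at 10.9 and 13 CPM in nicd explants, 13.1 and 9.47 CPM in suh-dbm+dnmcidas explants and 10.3 and 9.33 CPM in control explants, so the 3 groups lay close together.

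At st25, 2 members were higher and 4 lower in suh-dbm+dnmcidas than in control explants, where 1.34% of all genes were higher and 4.26% lower, and with the replicate block 7 were higher and 6 lower, against 2.47% and 5.63% of all genes. The lower ones were ccna1.L, ccna1.S, mcm4.L and mcm6.2.S, and the higher ones cdk2.L and cdk2.S. cdk2.L was at 35.6 and 23.1 CPM in suh-dbm+dnmcidas explants and at 13 and 11.6 CPM in control explants (1.26 ± 0.26, edgeR adjusted p = 0.00297), and cdk2.S was at 27.7 and 23.8 CPM in suh-dbm+dnmcidas explants and at 15.6 and 10.1 CPM in control explants (1.01 ± 0.28, edgeR adjusted p = 0.0278). ccna1.S was at 0.426 and 0.230 CPM in suh-dbm+dnmcidas explants and at 8.42 and 10.3 CPM in control explants. The 2 ccna1 calls held without any single library; the count was 4 and 2 without the first control or suh-dbm+dnmcidas library and 3 and 4 without the second one.

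At st10.5 mcm6.2.S was the only member called, at 6.40 and 7.40 CPM in suh-dbm+dnmcidas explants and 21.1 and 23.4 CPM in control explants (-1.69 ± 0.27, edgeR adjusted p = 0.0208), where 0.00632% of all genes were higher and 0.00632% lower. This call was lost without any 1 of the 4 libraries, and without the second suh-dbm+dnmcidas library mcm6.2.L was the 1 member called (-2.28, edgeR adjusted p = 0.0246). At st32 e2f3.L and mcm3.L were called higher, where 0.442% of all genes were higher and 2.30% lower. e2f3.L, an activator E2f, was at 52.0 and 61.8 CPM in suh-dbm+dnmcidas explants and at 28.2 and 31.1 CPM in control explants (0.94 ± 0.26, edgeR adjusted p = 0.0459). mcm3.L rested on 28 counts in suh-dbm+dnmcidas explants and 2 in control explants, and the ratio of 15.5 had a counting interval of 3.91 to 134. Neither of these calls held without the first control or the second suh-dbm+dnmcidas library. Without the first suh-dbm+dnmcidas library mcm2.L, not called with all libraries, was lower (-1.58).

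Multiciliated cell markers moved with these differences too. At st16 the 15 genes summed to 102 and 88.5 CPM in nicd explants, 91.6 and 63.8 CPM in suh-dbm+dnmcidas explants, 1150 and 691 CPM in suh-dbm explants and 993 and 1018 CPM in control explants. Against control, 12 of the 15 were called lower in nicd explants and 13 in suh-dbm+dnmcidas explants, and none was at 0 in both libraries of either group. The 11 ionocyte genes summed to 5.85 and 38.2 CPM in nicd explants, 2909 and 3439 CPM in suh-dbm+dnmcidas explants and 753 and 1152 CPM in control explants. All 11 were called lower in nicd explants, and 1 was called higher in suh-dbm+dnmcidas explants. The 6 goblet cell genes, 3 called lower in nicd explants, summed at st16 to 1464 and 1391 CPM in nicd explants, 3273 and 2817 CPM in suh-dbm+dnmcidas explants and 4518 and 3492 CPM in control explants. The 5 cement gland genes, 2 called higher in nicd explants, summed at st16 to 1493 and 2943 CPM in nicd explants, 148 and 350.0 CPM in suh-dbm+dnmcidas explants and 481 and 573 CPM in control explants. The 6 basal cell genes, 1 called higher in nicd explants, summed at st16 to 482 and 548 CPM in nicd explants, 78.8 and 133 CPM in suh-dbm+dnmcidas explants and 233 and 271 CPM in control explants. The 8 neural genes, 1 called higher and 1 lower in nicd explants, summed at st16 to 215 and 257 CPM in nicd explants, with neurog2.S at 0, 61.1 and 109 CPM in suh-dbm+dnmcidas explants, with neurog2.L at 0, and 97.3 and 115 CPM in control explants. The 8 mesoderm genes, 1 called higher in nicd explants, summed at st16 to 2.88 and 146 CPM in nicd explants, 1.16 and 1.19 CPM in suh-dbm+dnmcidas explants and 1.57 and 5.23 CPM in control explants, so the second nicd library stood apart, and myf5.L and myf5.S were at 0 in all 3 groups. No gene of these 5 lists was called in suh-dbm+dnmcidas against control explants at st16. At st25 the multiciliated cell genes, 12 of the 15 called lower against control and 12 against suh-dbm, summed to 48.3 and 33.0 CPM in suh-dbm+dnmcidas explants, with tekt2.L at 0, 1420 and 1307 CPM in suh-dbm explants and 1269 and 1062 CPM in control explants. The 6 goblet cell genes, none called in either comparison, summed at st25 to 2909 and 3146 CPM in suh-dbm+dnmcidas explants, 7424 and 5348 CPM in suh-dbm explants and 7064 and 5644 CPM in control explants. The 11 ionocyte genes summed at st25 to 4304 and 4800 CPM in suh-dbm+dnmcidas explants, 3104 and 5521 CPM in suh-dbm explants and 1440 and 1854 CPM in control explants, with 1 called higher against control and none against suh-dbm. At st32 the multiciliated cell genes, 12 of the 15 called lower in nicd and 11 in suh-dbm+dnmcidas against control explants, summed to 38.7 and 29.1 CPM in nicd explants, 64.5 and 36.2 CPM in suh-dbm+dnmcidas explants and 803 and 781 CPM in control explants. The ionocyte genes, 10 of the 11 called lower in nicd and none called in suh-dbm+dnmcidas explants, summed at st32 to 79.2 and 49.7 CPM in nicd explants, with slc26a4.L at 0, 4076 and 3785 CPM in suh-dbm+dnmcidas explants and 1069 and 2030 CPM in control explants. The part of these markers in the cdk7.L, ccna1, cdk20.L, cdk2 and other called levels was not tested.

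Against suh-dbm explants, which were also injected and share the Notch block, suh-dbm+dnmcidas explants differ by the dominant-negative multicilin mRNA. By the stated doses they also received more mRNA in total, and the 2 differences cannot be told apart. The suh-dbm and control groups are separate, but the suh-dbm+dnmcidas libraries are the same as above. At st16, 5 members were lower and none higher, where 0.215% of all genes were higher and 3.02% lower: ccna1.S (-5.18 ± 0.79), ccna1.L (-4.68 ± 0.86), cdk7.L (-3.09 ± 0.35), cdk20.L (-1.91 ± 0.53) and mcm4.L (-1.88 ± 0.28). The calls for cdk7.L, mcm4.L and both ccna1 genes held without any single library. At st10.5 mcm6.2.S was the 1 member called (-1.76 ± 0.28, edgeR adjusted p = 0.0180), where 0.00316% of all genes were higher and 0.00316% lower, and it was lost when a single library was left out.

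At st25 the same comparison gave 7 higher and 3 lower members, where 2.09% of all genes were higher and 3.91% lower, and with the replicate block 11 were higher and 5 lower, against 3.12% and 5.12% of all genes. The higher ones were cdk2.L, cdk2.S, e2f3.L, e2f3.S, e2f8.L, aurkb.L and ccna2.S, genes of S phase and mitosis, and the lower ones ccna1.L, ccna1.S and cdk20.L. cdk2.L was at 35.6 and 23.1 CPM in suh-dbm+dnmcidas explants and at 11.2 and 10.2 CPM in suh-dbm explants (1.46 ± 0.27, edgeR adjusted p = 0.000574). e2f3.L was at 68.9 and 66.3 CPM in suh-dbm+dnmcidas explants and at 29.8 and 35.8 CPM in suh-dbm explants (1.05 ± 0.26, edgeR adjusted p = 0.0122). Of the 10 calls, those of cdk2.L and both ccna1 genes held without any single library. Without 1 library 4 to 6 members were called, with the lowest count, 4, without the first suh-dbm or the first suh-dbm+dnmcidas library, 5 without the second suh-dbm library and 6 without the second suh-dbm+dnmcidas library. At st32 e2f3.L and e2f3.S were higher and ccna1.L lower, where 0.600% of all genes were higher and 2.32% lower, and 0 to 2 members were called when a library was left out.

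Setting nicd against suh-dbm explants, meant as Notch gain against Notch block, gave the highest member counts of the treatments. At st16, 21 members were higher and 4 lower, where 5.35% of all genes were higher and 7.36% lower. The median was 0.65 over the members and 0.09 over all genes. When every gene with at least 1 count was tested, 12 members were higher and 5 lower, against 1369 and 2361 of 45817 genes. The 4 lower ones were ccna1.L, ccna1.S, cdk20.L and cdk7.L. The higher ones held 6 E2f genes, e2f1.L (1.61), e2f6.S (1.45), e2f4.L (1.41), e2f4.S (1.24), e2f3.L (0.92) and e2f3.S (0.91). Helicase and origin genes called were mcm5.L (1.25), mcm4.L (1.09), mcm6.2.S (0.96), mcm2.L (0.89) and orc1.L (0.77). Cyclins and Cdks called were ccne1.S, ccne1.L, ccna2.S, cdk4.L, cdk11b.L and cdk11b.S, between 0.85 and 0.99.

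The largest increases at st16 were in Polo-like kinase 2, a kinase of centriole duplication, and in a Cdk5 activator. plk2.L was at 95.8 and 172 CPM in nicd explants, 16.7 and 27.4 CPM in suh-dbm explants and 29.7 and 25.3 CPM in control explants, a log2 fold change of 2.6 ± 0.81 over suh-dbm (edgeR adjusted p = 0.0343). plk2.S (2.57 ± 0.82) and plk3.L (1.11 ± 0.37) were higher too. cdk5r1.L, an activator of Cdk5 and not a cyclin or Cdk itself, was at 31.5 and 35.4 CPM in nicd explants and at 3.86 and 7.16 CPM in suh-dbm explants (2.6 ± 0.85, edgeR adjusted p = 0.0444). Calls for cdk7.L, ccna1.L, ccna1.S and e2f4.L held without any single library; the count was 5 without the first suh-dbm library, 7 without the first nicd library, 15 without the second suh-dbm library and 27 without the second nicd library.

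At st25, 41 members were higher and 4 lower in nicd than in suh-dbm explants, where 8.84% of all genes were higher and 9.88% lower. Of the families, 10 of 12 Mcm2-7 genes and 8 of 10 E2f genes were higher. The 15 largest increases were plk2.S, e2f1.L, ccne2.L, mcm2.S, mcm4.S, mcm5.L, ccnd1.L, e2f7.L, pcna.L, mcm7.S, mcm4.L, mcm2.L, mcm7.L, e2f8.L and cdk2.L, between 2.01 and 2.95. ccne2.L was at 60.3 and 51.2 CPM in nicd explants and at 5.18 and 11.1 CPM in suh-dbm explants (2.77 ± 0.54, edgeR adjusted p = 0.000568), and mcm4.L was at 87.8 and 60.4 CPM in nicd explants and at 14.3 and 15.2 CPM in suh-dbm explants (2.33 ± 0.29, edgeR adjusted p = 2.01e-06). Of the 9 cyclin B genes 3 were called higher, ccnb2.S (1.32), ccnb3.L (1.30) and ccnb3.S (1.24). The lower genes were ccna1.L, ccna1.S, cdk14.S and cdk20.L. Counts without 1 library were between 29 and 48, and 26 of the 45 calls held without any single library.

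At st32, 9 members were higher and 5 lower, where 4.02% of all genes were higher and 6.91% lower. With the replicate block 15 were higher and 5 lower, against 5.72% and 8.55% of all genes. The higher ones were e2f8.L (1.30), ccnd2.L (1.24), mcm7.L (1.16), mcm5.L (1.14), ccnf.L (1.07), ccne1.S (1.04), plk1.S (1.02), mcm6.2.S (0.96) and cdk2.S (0.87). mcm7.L was at 89.7 and 64.1 CPM in nicd explants and at 31.1 and 37.5 CPM in suh-dbm explants. The lower ones were ccna1.L, cdk5r1.L, cdk14.S, cdk20.L and aurkaip1.L, a mitochondrial protein named for binding Aurora A. ccna1.L had 2 counts in nicd explants and 120 in suh-dbm explants, a ratio of 47.3 with a counting interval of 12.8 to 395. Each of these 14 calls was lost without at least 1 single library. The counts that follow include members not called with all libraries, such as ccnd1.S, mcm2.L and mcm7.S without the second nicd library. Without the first suh-dbm library 0 members were higher and 3 lower, without the first nicd library 1 and 4, without the second suh-dbm library 2 and 3, and without the second nicd library 7 were higher and 0 lower. At st10.5 edgeR called no member, DESeq2 none and no member had an unadjusted p under 0.05, where 0.0442% of all genes were higher and 0.0126% lower.

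Several marker lists of other cell types also differed between nicd and suh-dbm explants at the 3 stages with calls. The 15 multiciliated cell genes, 12 of them called lower at each of these stages, summed to 102 and 88.5 CPM in nicd explants and 1150 and 691 CPM in suh-dbm explants at st16, to 62.7 and 40.9 CPM in nicd explants and 1420 and 1307 CPM in suh-dbm explants at st25, and to 38.7 and 29.1 CPM in nicd explants and 912 and 843 CPM in suh-dbm explants at st32. The 11 ionocyte genes, all called lower at each of these stages, summed at st25 to 9.32 and 32.9 CPM in nicd explants, with atp6v0d2.S at 0, and to 3104 and 5521 CPM in suh-dbm explants. The 5 cement gland genes, 2 called higher at st16, 5 at st25 and 3 at st32, summed at st25 to 3021 and 2912 CPM in nicd explants and to 221 and 288 CPM in suh-dbm explants. The 6 goblet cell genes, 3 called lower at st16, 1 at st25 and 0 at st32, summed at st25 to 1587 and 2538 CPM in nicd explants and to 7424 and 5348 CPM in suh-dbm explants. The 8 neural genes, 2 called higher at st25, summed at that stage to 238 and 236 CPM in nicd explants, with neurog2.S at 0, and to 26.8 and 46.8 CPM in suh-dbm explants, with neurog2.S and sox2.L at 0. The 6 basal cell genes, 2 called higher at each of these stages and 1 lower at st32, summed to 482 and 548 CPM in nicd explants and 341 and 163 CPM in suh-dbm explants at st16, to 581 and 431 CPM in nicd explants and 298 and 160 CPM in suh-dbm explants at st25, and to 569 and 436 CPM in nicd explants and 176 and 171 CPM in suh-dbm explants at st32. The 8 mesoderm genes, none called at st25, summed at that stage to 70.1 and 214 CPM in nicd explants, with myf5.L and myf5.S at 0, and to 25.1 and 6.54 CPM in suh-dbm explants, with myf5.L, myf5.S and t.L at 0. The part of these markers in the differences of the cell cycle genes was not tested.

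The suh-dbm group gave no call among these genes. The Notch block itself was not measured here. The 7 genes of the targeted factors (foxa1, mcidas, notch1 and rbpj copies) summed in suh-dbm explants to 33877 and 35060 CPM at st10.5. They summed to 1707 and 2634 CPM at st16, 98.8 and 460 CPM at st25, and 49.3 and 177 CPM at st32. In control explants these sums were 162 and 164, 640 and 388, 86.1 and 101, and 50.7 and 61.9 CPM from st10.5 to st32. Between suh-dbm and control explants edgeR called 0 of 104 members at st10.5, st16, st25 and st32, where 0.00316%, 0.00316%, 0.00% and 0.00% of all genes were called, and DESeq2 called 0 as well. At an unadjusted p under 0.05 there were 0, 2, 5 and 3 members at these stages, and the share of all genes at that threshold was not counted. Those with the smallest p included ccne1.L at st16, which averaged 58.8 ± 12 CPM in suh-dbm and 90.0 ± 27 CPM in control explants, and ccne1.S (-0.66) and cdk4.L (-0.57) at st25. None of these values passed the adjustment. At st16 the median log2 fold change was -0.20 over the members and -0.11 over all genes, with 90 of 104 members below 0. At st25 the medians were -0.17 and -0.02, with 74 of 104 members below 0. They were -0.10 and -0.14 at st10.5 and -0.10 and 0.00 at st32. Whether the members as a set were lower was not tested.

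The foxa1MO group, injected against a factor linked to small secretory cells of this epidermis, gave no member call either. Knockdown itself was not measured here. The 5 small secretory cell genes, foxa1 copies included, summed at st16 to 56.1 and 15.1 CPM in foxa1MO and 78.2 and 29.3 CPM in control explants. At st25 these sums were 47.7 and 33.9 against 24.8 and 28.6 CPM, and at st32 45.2 and 35.8 against 28.8 and 32.4 CPM. edgeR called 0 of 104 members at each stage, where 0.0158%, 0.0442%, 0.0284% and 0.0126% of all genes were called from st10.5 to st32, and DESeq2 called 0. At an unadjusted p under 0.05 there were 1, 1, 1 and 4 members, again without a count over all genes. The smallest p at st32 was that of mcm3.L, which averaged 0.447 ± 0.10 CPM in foxa1MO and 0.0384 ± 0.054 CPM in control explants (SD, n = 2 each), with an edgeR adjusted p of 0.140. At st10.5 cdk9.L averaged 243 ± 22 CPM in foxa1MO and 353 ± 9.9 CPM in control explants (-0.54), and at st25 orc2.S averaged 6.66 ± 0.57 CPM in foxa1MO and 10.01 ± 0.28 CPM in control explants (-0.59), both short of the threshold.

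**Figure D5:**
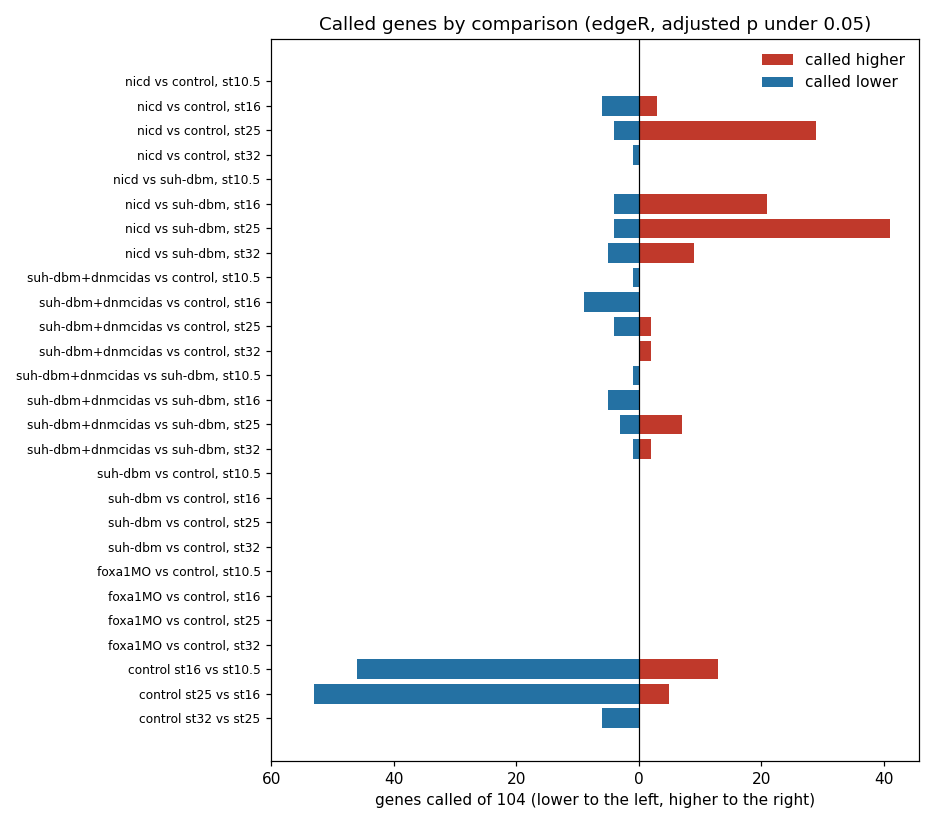
Number of the 104 genes called higher or lower (edgeR adjusted p under 0.05) in each comparison, with bars to the right for higher and to the left for lower. The control step between st16 and st10.5 holds 59 calls, where 22.2% of all genes were higher and 22.6% lower. The comparison of nicd with suh-dbm at st25 holds 45, where 8.84% of all genes were higher and 9.88% lower. The suh-dbm and foxa1MO comparisons with control hold 0 at every stage, where at most 0.00316% and 0.0442% of all genes were called.

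Genes of the same processes that are not among the 104 were counted from 4 further lists. Calls on these lists were not checked with a library left out. In nicd against control explants at st25, where 5.21% of all tested genes were higher and 7.10% lower, 34 of 46 other replication genes rose and none fell, with a median of 1.32. Of 59 other mitosis genes 15 rose, and of 23 cell cycle inhibitor, Rb and Dream complex genes 3 rose. With the replicate block 6 of these 23 rose, against 6.97% of all genes higher and 8.90% lower. The replication list included chaf1b.L, a subunit of the histone chaperone CAF-1 (1.83), rpa1.L and rpa2.L, which bind single-stranded DNA (1.96 and 1.83), and tyms.L, thymidylate synthase (2.14). Of the mitosis list pkmyt1.L, an inhibitory kinase of Cdk1, had 2.16, espl1.S 1.38 and top2a.L 1.27. The replication list summed to 2082 and 1190 CPM in nicd explants and to 566 and 475 CPM in control explants.

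gmnn.L and gmnn.S, copies of geminin, which binds the loading factor Cdt1 and keeps origins from being licensed again, rose most. At st16 gmnn.S averaged 448 ± 110 CPM in nicd explants and 28.2 ± 6.2 CPM in control explants (SD, n = 2 each), a log2 fold change of 3.99 ± 0.57 (edgeR adjusted p = 3.49e-05), and gmnn.L had 4.17. cdt1.L (1.37) and cdt1.S (1.11) were also higher, with chaf1b.L (0.95) completing the 5 called of 46 at that stage, where 2.71% of all genes were higher. At st25 gmnn.S averaged 175 ± 150 CPM in nicd explants and 8.23 ± 2.9 CPM in control explants, so its 2 nicd libraries differed widely.

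In suh-dbm+dnmcidas against control explants at st16, 9 of 46 other replication genes fell and none rose, where 3.72% of all genes were lower. With the replicate block 16 fell, against 0.686% of all genes higher and 4.42% lower. tyms.L (-2.38), prim2.S, a primase subunit (-1.35), rfc4.L (-1.32), rpa3.S (-1.28) and fen1.L (-1.28) were named by the smallest adjusted p. bora.L, an activator of Aurora A (-2.55), and cdkn2c.L, a Cdk4 and Cdk6 inhibitor (-3.17), were the single calls in the mitosis and the inhibitor lists. At st25, where 1.34% of all genes were higher and 4.26% lower, 2 replication genes rose and none fell, wdhd1.L (1.12) and chaf1b.L (0.79), and 3 mitosis genes rose, nuf2.S (1.35), espl1.S (1.18) and ect2.L (1.02). With the replicate block 4 replication genes rose and 1 fell and 5 mitosis genes rose, against 2.47% of all genes higher and 5.63% lower. The difference between the stages was not tested for these lists.

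The last list held genes of centriole amplification and of the Multicilin complex, cell cycle relatives that multiciliated cells use. cdk20.L, which is on this list too, was not counted again, which left 19 tested genes. In nicd against control explants 13 of the 19 genes fell at st16, 6 fell at st25 and 0 fell at st32, where 7.22%, 7.10% and 4.05% of all genes were lower. In suh-dbm+dnmcidas against control explants 10 fell at st16, where 3.72% of all genes were lower, including deup1.L_ccdc67.L (-7.73), ccno.S, the cyclin O of multiciliated cells (-7.40), fbxo43.L (-4.97), plk4.S, the master kinase of centriole duplication (-4.62), and stil.L (-2.17). The 1 gene called higher there, mcidas.S, is the locus to which the injected mRNA can map. In control explants 12 of the 19 genes rose and 4 fell between st10.5 and st16, where 22.2% of all genes rose and 22.6% fell, and none rose and 14 fell between st16 and st25, where 11.4% of all genes fell.

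The L and S copies of a gene were set side by side. In nicd against control explants at st25, both copies were called in the same direction in 8 of 32 pairs and 1 copy in 7 pairs. In nicd against suh-dbm explants at st25 both copies were called in 13 pairs and 1 copy in 8. Between st16 and st10.5 in control explants, 13 pairs were called in the same direction and 1, cdk9, in opposite directions. No such count was made over all L and S pairs, so whether these numbers are particular to the members was not tested. Of the 104 genes, 92 were called in at least 1 comparison, 86 between control stages and 58 in at least 1 treatment comparison. Of all tested genes, 72.3% were called in at least 1 comparison, 67.9% between control stages and 29.6% in at least 1 treatment comparison. The 12 genes never called were ccnb1ip1.L, cdk10.L, cdk17.L, cdk18.L, cdk18.S, cdk2ap1.S, cdk5.L, cdk5rap1.L, cdk6.S, mcm10.L, mcm9.L and orc3.S.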

How the data were processed

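The authors deposited raw counts per gene, 1 file per library, and a table of gene symbols. Per the submitters' processing notes, FastQC 0.11.5, STAR 2.6.0b-1, featureCounts 1.6.3 and DESeq2 1.22.1 were used; per the file headers the reads were mapped with STAR. The genome build, the annotation and the treatment of reads mapping to several places are not given in the sources used here, so no coordinates or sequences are printed. Each library holds 2 sequencing runs.

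The members and the lists were chosen with earlier results of these data known. All gene IDs were fitted together with edgeR 4.0.16 (quasi-likelihood test, R 4.3.3) on 40 libraries in 20 groups, with no block. Scaling was by trimmed mean of M-values (factors 0.823 to 1.23). A filter on low counts asked for 15 or more counts in total. It also asked for the CPM of 10 counts at the median library size in 2 or more libraries of any group. The filter left 31648 genes, and the fit had 20 residual degrees of freedom. P-values were adjusted by Benjamini and Hochberg over these genes. CPM values are scaled counts, and the SE is the log2 fold change divided by the root of its F statistic. The code was run on simulated counts drawn from the fit itself, with no pairing of experiments. Such a run checks the code and not how well the model describes these libraries. In each comparison called members were named up to 30, otherwise the 15 with the largest change in each direction; without a call, those with the smallest p.

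Experiment numbers pair the samples, since the series' design text gives each its own female and fertilization. Deviations of 40 of 40 same-stage group pairs correlated above 0.1 (0.166 to 0.653, median 0.438). Of all 190 group pairs 159 did (median 0.183). The replicate block is 1 term shared by all stages, so it does not model a pairing that differs by stage. Counts of paired libraries differed beyond counting error (chi-square per degree of freedom 48.3 to 130), and counting intervals (95%) cover counting error only. The alternatives were a block for the experiment, median-ratio (RLE) size factors, every gene with at least 1 count, DESeq2 1.42.0 and leaving out each library, where the lone library of a group is assumed to vary like the others. Fits with a library left out kept the gene filter, the scaling factors and the negative binomial dispersions of all 40 libraries. Only the quasi-likelihood dispersion was estimated again, so the library left out still had a part in the spread used. A term for a dataset number in the file headers (604 in 18 libraries of experiment 1 and 2 of experiment 2, 630 in the others) was chosen after seeing the data.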

Additional observations from a re-analysis of the deposited data

Results flagged for a closer look

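The effects of 2 treatments on cdk7.L differed between st16 and st32 by a test of the difference itself. For nicd over control explants the log2 fold change was greater at st32 by 2.46, and for suh-dbm+dnmcidas over control explants by 3.38. Both comparisons use the same control libraries.

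cdk5r1.L was called in opposite directions in nicd against suh-dbm explants, with a log2 fold change of 2.6 at st16 and -3.68 at st32, where it averaged 0.167 ± 0.24 CPM in nicd and 2.29 ± 1.6 CPM in suh-dbm explants (SD, n = 2 each). The call at st16 was lost without any 1 of its 4 libraries, and that at st32 without the first suh-dbm or the second nicd library. The difference between these stages was not tested itself. Groups of 2 libraries allow no check for a single sample that stands apart.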

How the results depend on the processing

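No call for a single member changed direction under any alternative. Of 360 calls of members, 360 passed the threshold with the replicate block, 356 with DESeq2, 353 with a term for the dataset number of the headers, 339 with RLE size factors and 312 when every gene with at least 1 count was tested. Leaving out a single library, which leaves 1 library in its group, lost far more of these calls than any of those alternatives. With the replicate block, called members numbered 13 in suh-dbm+dnmcidas against control at st25 (6 without it), 16 against suh-dbm at st25 (10), 15 in nicd against control at st16 (9) and 3 at st32 (1), and 2 in the difference of nicd effects (1). Over all 31648 genes the last of these had 412 higher and 282 lower, and 226 and 174 without the block. DESeq2 called 13 and 6 in suh-dbm+dnmcidas against control at st25 and st32 (edgeR 6 and 2) and 2, 9, 18 and 5 against suh-dbm at the 4 stages (edgeR 1, 5, 10 and 3). Over all genes it called 828 higher and 2007 lower of 27966 at st25 and 321 and 909 of 27353 at st32 against control. Against suh-dbm it called 1 and 9 of 26125, 161 and 1235 of 28580, 1080 and 1854 of 27353, and 429 and 900 of 27353. DESeq2 called 16 and 7 members in nicd against control at st16 and st32 (edgeR 9 and 1), 24 against suh-dbm at st32 (edgeR 14), 13 in control st32 against st25 (edgeR 6), and 4 and 2 in the differences of nicd and suh-dbm+dnmcidas effects (edgeR 1 each). Over all genes nicd against control had 1444 higher and 2852 lower of 28580 at st16 and 971 and 1694 of 27966 at st32. Against suh-dbm at st32 nicd had 2004 and 2665 of 27966, and control st32 against st25 had 667 and 900 of 25512. The differences of nicd and suh-dbm+dnmcidas effects had 542 and 409 of 26739 and 267 and 70 of 25512. Testing every gene with at least 1 count gave 1 in suh-dbm+dnmcidas against control at st32, 2 against suh-dbm at st10.5, 10 in control st32 against st25 and 2 in the difference of nicd effects. In the same order, 216 of all 45817 genes were higher and 779 lower, then 1 and 3, 328 and 532, and 413 and 277. RLE gave 2 in nicd against control at st32, where 572 of 31648 genes were higher and 1263 lower. The header term gave 3 there, where 742 genes were higher and 1472 lower. It gave 10 in suh-dbm+dnmcidas against control at st25, where 635 genes were higher and 1621 lower. In nicd against suh-dbm, higher calls at st32 numbered 15 with the replicate block and with the header term (9 without), and those at st16 numbered 12 when every gene with at least 1 count was tested (21). In these fits 1811 and 1585 of 31648 genes were higher at st32, and 1369 of 45817 at st16. The cause of these shifts was not tested.

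With 1 library left out, counts ranged in suh-dbm+dnmcidas against control over 0 to 1, 4 to 7, 2 to 4 and 0 to 2 by stage, against suh-dbm over 0 to 1, 4 to 6, 4 to 6 and 0 to 2, in nicd against control over 0 to 0, 3 to 14, 11 to 34 and 0 to 2, and against suh-dbm over 0 to 0, 5 to 27, 29 to 48 and 3 to 7. Control steps ranged over 35 to 55, 34 to 50 and 0 to 3, control st32 against st10.5 over 67 to 70, both differences of effects stayed at 1, and suh-dbm and foxa1MO against control stayed at 0.

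RLE size factors moved the median of all genes from -0.14 to 0.00 in suh-dbm against control at st10.5, from -0.10 to 0.00 in nicd against control at st10.5 and from -0.11 to 0.02 in control st32 against st10.5, where the members' median moved from -1.80 to -1.65. With 2 libraries a group, a miss of the threshold does not show that levels were alike.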
